A study of Mus musculus with 14 samples.

Results

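A set of 10 genes that mark neuroendocrine cells or build their secretory granules was followed through ATAC-seq peak lists of 7 mouse small cell lung cancer lines. The genes were a given list (Chga, Chgb, Syp, Calca, Ddc, Scg2, Scg3, Uchl1, Ncam1 and Resp18), among 21883 protein-coding genes on the same chromosomes. Each gene was taken as its extent on GRCm38 plus 10 kb on either side. ATAC-seq uses a transposase that cuts open chromatin, so a peak marks a stretch of accessible DNA and not the amount of RNA or protein. The 3 lines labelled RPR2 were 1373M1, from a liver metastasis, and 12N1G and N2N1G, from lymph node metastases. The 4 lines labelled RPR2;Nfibf/f, called Nfibf/f lines here, came from liver metastases (1398M1, 1399M4) or from lung tumors (1398P2, 1399P1). As background, RPR2 mice are a model in which Rb1, Trp53 and Rbl2 are deleted in the lung, so every line shares those alleles. In Nfibf/f mice the Nfib gene, which encodes a transcription factor, is flanked for deletion as well. Each line gave 2 libraries, and the labels do not say whether these came from separate cultures, so the line was used as the replicate. Only liver metastases had lines of both genotypes. Comparisons of all RPR2 with all Nfibf/f lines had no term for tissue, so genotype and tissue cannot be told apart in them.

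Neuroendocrine cells store peptides and amines in dense-core granules and release them on stimulation. Chromogranins and secretogranins fill these granules, Ddc makes amine transmitters, and Syp sits in the membrane of small vesicles. Small cell lung cancer commonly keeps this programme, and pathologists use several of its products to recognise the tumor.

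The peaks of all 14 libraries were merged wherever they shared at least 1 base, which gave 177684 regions. Of these, 94 lay at the 10 genes. The lists held 65009 to 84220 peaks in 13 libraries and 33558 in replicate 2 of 1398P2, which was also the shallowest by its lowest local background (0.507 reads, against 0.632 to 1.134 in the others). Lines 12N1G and N2N1G shared 77.7% of the regions open in either, whereas the other 20 pairs of lines shared 32.0% to 55.1%. The peak lists cannot show whether Nfib was deleted: its gene ends had a peak in all 14 libraries, and the regions at the gene numbered 15 to 23 per RPR2 library and 4 to 16 per Nfibf/f library. The neuroendocrine regulator Insm1 had a gene-end peak in all 14 libraries and Neurod1 in 13. Marker lists of other cell types were mixed at their gene ends. Of 5 hepatocyte genes, 3 (Alb, Afp and Cyp2e1) had no peak in any library, Ttr had one in 5 libraries and Apoa1 in 14. Of 5 leukocyte genes, 2 had none in any library, Ptprc among them, Cd3e had one in 3 libraries, and Cd79a and Spi1 in 14. Among lung epithelial genes, Sftpc and Foxj1 had one in 14 libraries, Scgb1a1 in 13, Sftpb in 11 and Krt5 in 2. Among tuft-like genes, Trpm5 had one in 11 libraries, Pou2f3 in 5 and Avil in 3. Among fibroblast genes, Col1a1 had one in 14 libraries, Col1a2 in 4 and Pdgfrb in 3. A gene-end peak need not lie at a start site. Over the 300-base window around the RefSeq start site, Apoa1, Cd79a, Sftpb and Cd3e had a peak in 0 libraries. Trpm5, Krt5, Avil and Col1a2 had one there in as many libraries as at their ends. Others, among them Ttr, Spi1, Sftpc, Foxj1 and Col1a1, had no listed start site. Gene-end peaks of the endothelial gene Cdh5 were called in 5 of the 6 RPR2 libraries and in 0 of the 8 others, and those of Pecam1, also endothelial, in 0 of 14. Cdh5 had more regions in RPR2 lines, by 1.60 ± 0.22 (SE) on the log2 scale with an adjusted p of 0.0248 by limma. Genotype and tissue cannot be told apart in this difference. Whether it held with other processing, or without single lines, was not followed for Cdh5. The part of endothelial cells in the results was not tested.

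RefSeq start sites on GRCm38.p6 were listed for 9 of the 10 genes. Ddc had 2 of them, which made 10 windows. The bases before the start sites are shown for the genes that hold the most readable feature of the group, a cAMP response element or its core, and for both start sites of Ddc, which differed in accessibility. Each run holds the 250 bases that end just before the start site, 5′ to 3′ on the gene's strand. Capitals mark TGACGTNA, the core TGACG or TATAAA on either strand.
Chga, chr12:102554691-102554940, plus strand: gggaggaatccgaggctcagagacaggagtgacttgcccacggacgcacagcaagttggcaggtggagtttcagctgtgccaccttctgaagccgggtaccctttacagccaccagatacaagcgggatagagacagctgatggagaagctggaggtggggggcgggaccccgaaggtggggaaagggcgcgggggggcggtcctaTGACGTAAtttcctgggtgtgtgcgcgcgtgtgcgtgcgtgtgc
Chgb, chr2:132781392-132781641, plus strand: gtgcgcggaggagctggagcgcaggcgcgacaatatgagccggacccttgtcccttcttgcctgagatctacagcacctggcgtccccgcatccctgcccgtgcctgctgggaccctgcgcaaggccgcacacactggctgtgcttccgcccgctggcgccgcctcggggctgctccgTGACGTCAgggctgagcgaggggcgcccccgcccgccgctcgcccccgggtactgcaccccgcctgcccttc
Scg2, chr1:79440027-79440276, minus strand: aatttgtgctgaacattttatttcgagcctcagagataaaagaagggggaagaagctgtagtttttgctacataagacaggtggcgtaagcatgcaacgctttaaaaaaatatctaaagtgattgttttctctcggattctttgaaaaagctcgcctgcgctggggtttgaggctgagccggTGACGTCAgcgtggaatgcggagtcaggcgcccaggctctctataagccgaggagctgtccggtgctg
Calca, chr7:114636358-114636607, minus strand: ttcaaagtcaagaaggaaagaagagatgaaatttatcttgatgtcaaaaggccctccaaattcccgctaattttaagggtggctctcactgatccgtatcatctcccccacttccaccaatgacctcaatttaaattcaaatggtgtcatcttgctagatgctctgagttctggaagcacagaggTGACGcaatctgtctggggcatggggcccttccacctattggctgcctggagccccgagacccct
Scg3, chr9:75684057-75684306, minus strand: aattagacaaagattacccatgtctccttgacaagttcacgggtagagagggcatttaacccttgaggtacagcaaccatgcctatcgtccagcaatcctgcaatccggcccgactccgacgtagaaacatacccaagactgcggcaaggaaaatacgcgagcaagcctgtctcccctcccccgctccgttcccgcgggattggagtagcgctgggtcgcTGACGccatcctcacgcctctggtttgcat
Ddc inner start site, chr11:11890409-11890658, minus strand: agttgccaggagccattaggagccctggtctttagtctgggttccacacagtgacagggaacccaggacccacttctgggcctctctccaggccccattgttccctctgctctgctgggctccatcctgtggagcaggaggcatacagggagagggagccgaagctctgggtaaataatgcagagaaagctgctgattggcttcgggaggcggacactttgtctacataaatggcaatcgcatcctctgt
Ddc outer start site, chr11:11898145-11898394, minus strand: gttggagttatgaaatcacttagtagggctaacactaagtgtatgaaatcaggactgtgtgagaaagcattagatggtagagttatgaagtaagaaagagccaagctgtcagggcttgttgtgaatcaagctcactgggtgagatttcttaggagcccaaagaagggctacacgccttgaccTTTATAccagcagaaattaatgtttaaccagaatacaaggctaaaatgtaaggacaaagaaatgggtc

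The granule proteins Chga, Chgb and Scg2 each held TGACGTNA, from base -44, -72 and -68 before the start site. That motif was found in 2.52% of the 32851 windows of the table. The core TGACG, which every TGACGTNA contains, was in 5 of the 10 windows and in 17.8% of all windows. The E-box CAGCTG was present before Chga and Resp18, against 13.0% of all windows. The NFI half-site TTGGCA lay before Chga and Syp, against 12.3% of all windows. A match of letters is a description and not a site of binding. The base composition of the 10 windows ranged from 40.8% G and C at the outer Ddc start to 72.8% at Chgb, around a median of 52.4% for all windows.

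All 9 genes with a listed start site had a peak within 1 kb of one in all 14 libraries. By the same measure 52.4% of the 17491 genes of the table did so. Over the 300-base window around the start site itself, Resp18 had a peak in 13 libraries, all but 1398P2 replicate 2. Ddc, the aromatic amino acid decarboxylase that makes dopamine and serotonin, was open at its inner start in 14 libraries and at its outer start in 0. The peak at the inner start had its summit at -79 to -25 bases from the start site. By gene ends alone, 8 of the 10 genes had a peak within 1 kb of an end in all 14 libraries, against 50.8% of protein-coding genes. The exceptions were Ddc and Scg3, at 0 libraries each. The outer Ddc start is the end of that gene's extent, and the Scg3 start site lies inside its extent, 1903 bases from the end.

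How high a start-site peak stood within its library was read from the fold enrichment that the authors' peak caller gave, as a percentile among that library's peaks. Of the peaks in merged regions within 1 kb of a start site, the highest of each library was taken. These ranks come from lists of different length and describe each library only. For comparison, the 9172 genes with a peak within 1 kb of a start site in all 14 libraries had a median percentile of 86.1, with quartiles of 72.9 and 93.6. Scg3, a granule protein that binds Chga, stood highest: its percentile ran from 90.9 to 99.6, with a median of 99.1. This was also the highest mean rank of the 17 regions at the 10 genes that had a peak in every library. Such regions made up 18.1% of the 94, against 13.3% of regions within 10 kb of a protein-coding gene. Chgb, a chromogranin like Chga, ran from 75.2 to 99.3 with a median of 97.0, and its 2 lowest libraries were both of 1398P2. Both genes stood above the upper quartile in the median.

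Syp, which encodes synaptophysin, had a median percentile of 84.8 and a range of 8.57 to 96.0. The value of 8.57 came from the shallow replicate 2 of 1398P2, while replicate 1 of that line stood at 93.2. Scg2, a secretogranin, ran from 66.4 to 95.6 with a median of 83.4. It had a single region in every library, and its 2 lowest values were both of 1399M4. Ddc had a median of 69.1, Uchl1, a ubiquitin hydrolase of neurons, 60.1, and Calca, the precursor of calcitonin and its related peptide, 55.4. The highest peak at Calca was not always the one over the start window, which alone had a median of 49.4 and ran from 33.3 to 66.4.

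Chga and Resp18 had the lowest medians, 36.9 and 40.4, and in both the lymph node lines stood apart. The highest peak at the Chga start ranked at 16.4 to 22.2 in the 4 lymph node libraries and at 32.7 to 62.6 in the other 10. Resp18, a granule protein of endocrine cells, went the other way, with 65.9 to 89.4 in the lymph node libraries and 11.5 to 49.5 in the rest. The ranges did not overlap in either gene, and did in the other 7. For Chga this held only with the highest peak of the merged region. The peak over the start window itself stood at 21.6 in 1398P2 replicate 2, inside the lymph node range. Ranked by the highest peak as well, 0.938% of the 9172 genes stood lower in all lymph node libraries than in all others, as Chga did. A further 0.883% stood higher. These 2 genes were picked out after their values were seen, and Resp18 is the only one of the 10 that lies in a 1 Mb bin of raised local background. At Chga, the local background over the library's lowest was 13.1 to 14.3 in 12N1G and 18.1 to 18.6 in N2N1G. It was 18.9 and 5.09 in replicates 1 and 2 of 1398P2, and 6.77 to 12.7 in the remaining lines. At Resp18 it was 3.08 to 4.56 in the lymph node lines and 1.58 to 8.45 in the rest. The part of background in these ranks was not tested.

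**Figure D1:**
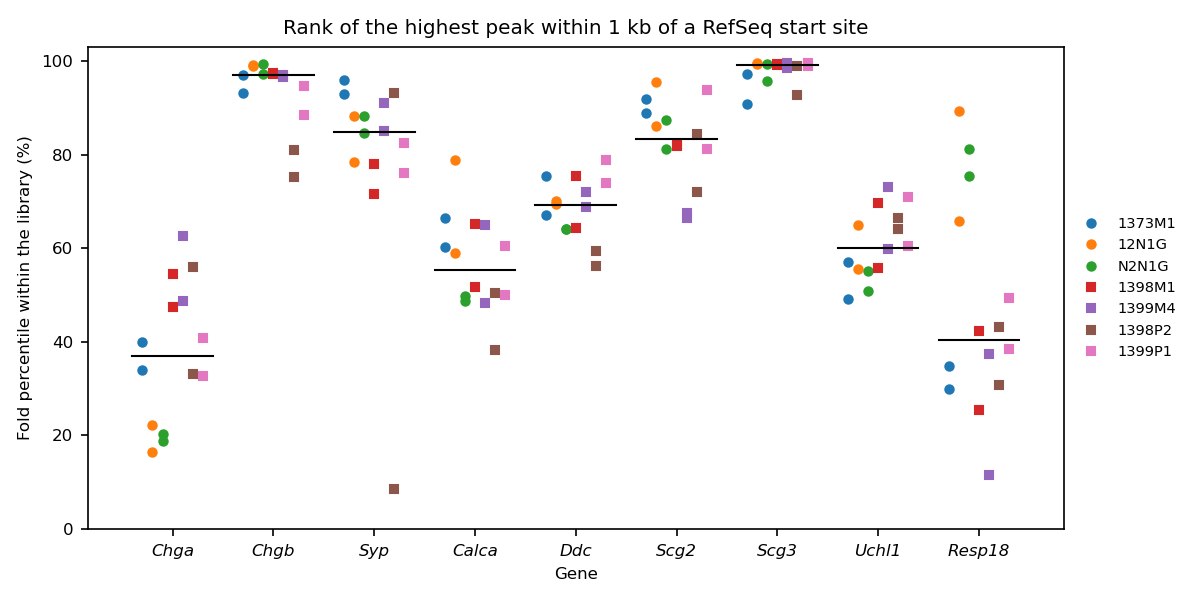
Percentile of fold enrichment within each library (y axis, %) of the highest peak in merged regions within 1 kb of a RefSeq start site, for 9 genes (x axis). Each point is a library, circles are RPR2 and squares Nfibf/f lines, and black bars are medians over 14 libraries. Scg3 and Chgb lie near the top, and the lymph node lines 12N1G and N2N1G lie lowest at Chga and highest at Resp18.

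The order of the genes depended on how peaks were ranked. By −log10 p in place of fold, the median percentile of Chga was 75.6 and that of Resp18 56.8, against a median of 91.0 over the same 9172 genes. Scg2 then stood at 70.4 and Syp at 78.6, so that Resp18 and Scg2, and not Chga, had the lowest medians. The local background, expressed over the lowest of the library, had a median of 11.9 at Chga, 10.7 at Uchl1 and 9.39 at Chgb, and of 1.44 at Scg2 and 1.79 at Ncam1. Its part in the ranks was not tested.

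Regions away from the start sites varied more. Upstream of Chga, a region at chr12:102546267-102547113 had a peak in all 10 libraries of 1373M1 and the Nfibf/f lines and in 0 of the 4 lymph node libraries. Such a pattern was found in 0.404% of regions within 10 kb of a protein-coding gene. A similar region beside Resp18, at chr1:75282967-75283783, had a peak in 10 of those 10 libraries and in 1 of the 4 lymph node libraries. Both were picked out after their values were seen. The labels do not say whether 12N1G and N2N1G, which share most of their open regions, are independent. Regions open in these 2 lines alone were 0 of 94, against 1.68% near genes.

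At Calca, a region at chr7:114646118-114646694, 9208 bases from the gene, had peaks in both libraries of every line but 1399M4, where it had none. Its median percentile of 86.7 was above that of the start-site peak. At Ddc, the region chr11:11844269-11845035 inside the gene was likewise open in every line but 1398P2, where both libraries lacked it. Regions with a peak in all lines but 1 made up 1.09% of regions near genes and 2 of the 94 here. A further 13 regions were of 1 line alone, against 8.69% near genes, and 10 of these lay in Ncam1. The highest ranked of them, at chr9:49640193-49640578 in Ncam1, had a peak only in the 2 libraries of 1399M4.

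Regions that separated the genotypes completely were not found: 0 of 94 had a peak in all RPR2 libraries and no Nfibf/f library, and 0 the reverse, against 0.779% and 0.479% of regions near genes. The count became 1 when 1398P2 replicate 2 was left out. The region that then qualified lay 561 bases beyond an end of Ncam1, at chr9:49500826-49501568, and was called in 7 of the 8 Nfibf/f libraries and 0 of the 6 others. It became 1 also without 12N1G replicate 1, through a region 3411 bases outside Ddc at chr11:11901555-11902061, where 5 of the 6 RPR2 libraries and 0 of the 8 others had one. Leaving out the whole of line 1398P2 or 12N1G gave these same regions. Without line 1398M1 the count was 1 as well, through the Ncam1 region at chr9:49715136-49715583. It stayed at 0 in 19 of 25 alternatives.

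Ncam1 encodes a neural adhesion molecule that is a surface marker of small cell lung cancer, and its extent of 297265 bases (chr9:49502129-49799393) held 40 of the 94 regions. The mean number of regions per library was 9.5 in 1373M1, 6.0 in 12N1G and 5.5 in N2N1G. Among the Nfibf/f lines, 1398M1 had 9.0 and 1398P2 9.5, while 1399P1 had 14.5 and 1399M4 18.5. The groups overlapped, since 1373M1 had more than 1398M1, and the 2 libraries of 1398P2 themselves gave 16 and 3. The RPR2 lines averaged 7.0 ± 2.18 (SD, n = 3 lines) and the Nfibf/f lines 12.9 ± 4.50 (SD, n = 4 lines). On the log2 scale of scaled region numbers plus 0.5, RPR2 minus Nfibf/f was -0.76 ± 0.25 (SE), with an adjusted p of 0.138 by limma. The difference was -0.36 ± 0.30 (SE) with only peaks of −log10 q of at least 5. Over the alternatives that could be run, which left out libraries or lines or changed the processing, limma's adjusted p ran from 0.0544 to 0.550.

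At Ncam1, 5 regions were called in 6 or more of the 8 Nfibf/f libraries and in 0 of the 6 others, a pattern seen in 2.62% of regions near genes. The most highly ranked of these, at chr9:49715136-49715583 inside the gene, was open in both libraries of 1399M4, 1398P2 and 1399P1 and absent from 1398M1. Its percentile had a median of 83.6. In the other direction, 3 of the 94 regions, 2 at Ddc and 1 at Scg3, were called in at least 4 of the 6 RPR2 libraries and none of the others, against 3.36% near genes. The pattern of the Ncam1 region inside the gene was found in 0.425% of regions near genes. The gene-end region at chr9:49796583-49799177 was present in all 14 libraries, with percentiles of 42.2 to 80.0 and a median of 64.4.

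**Figure D2:**
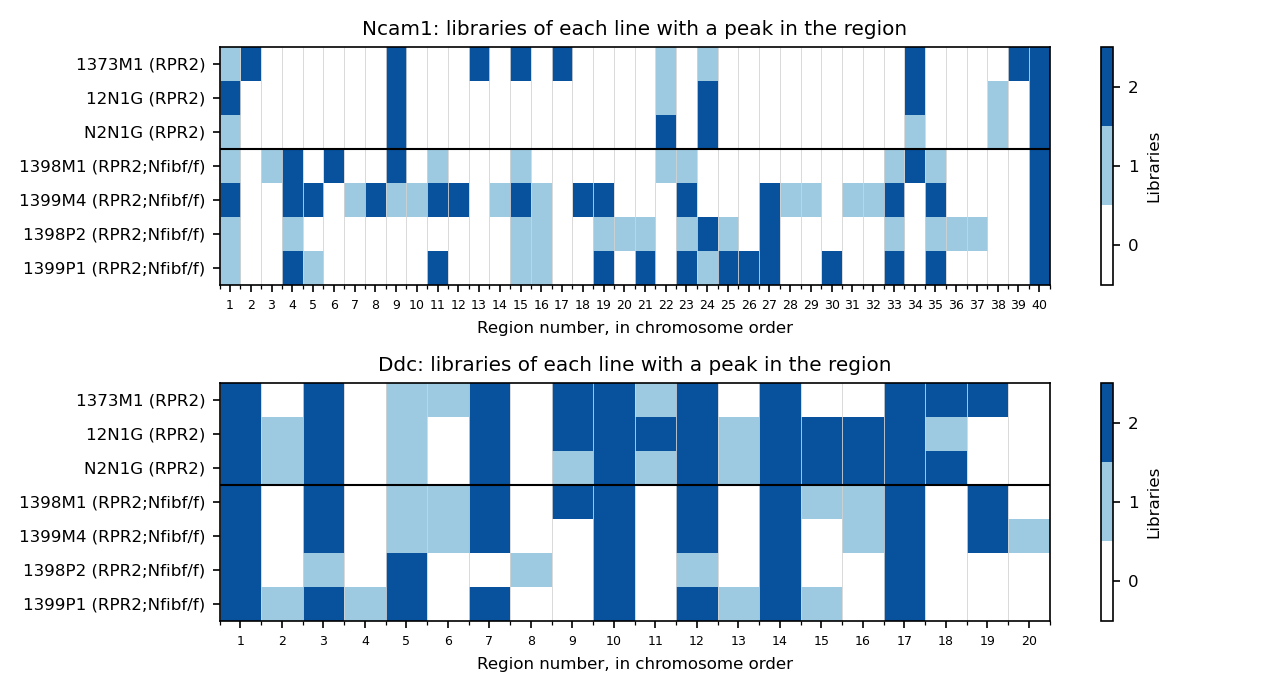
Number of libraries of each line (0, 1 or 2, by colour) with a peak in each of the 40 regions at Ncam1 and the 20 at Ddc, numbered along the chromosome (x axis). Rows are lines, with RPR2 above and Nfibf/f below the black line. Ncam1 shows 1 region filled throughout and many in 1399M4 and 1399P1, and Ddc shows 4 filled throughout.

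Ddc held 20 regions, of which 4 had a peak in every library, 1 of them at the end of its neighbour Fignl1. The mean number of regions was 11.5 in 1373M1, 13.0 in 12N1G and 12.5 in N2N1G. Line 1398M1 had 11.0, both 1399M4 and 1399P1 had 10.0, and 1398P2 had 6.5. Every RPR2 line was above every Nfibf/f line, as in 4.42% of the 7654 genes tested, while 7.46% showed the reverse. The means were 12.3 ± 0.764 (SD, n = 3 lines) and 9.38 ± 1.97 (SD, n = 4 lines). The log2 difference was 0.45 ± 0.16 (SE), with an adjusted p of 0.154 by limma. When every list was shortened to 33558 peaks it was -0.0023, with an adjusted p of 0.995, so no difference was seen with lists of equal length. The shallow library of 1398P2 had 5 regions.

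Ddc also had a region that followed the tissue label across both genotypes. At chr11:11902378-11902935, 4234 bases outside the gene, both libraries of the 3 liver metastasis lines, 1373M1, 1398M1 and 1399M4, had a peak and the other 8 libraries had none. Its median percentile was 76.7. Regions of the liver metastasis lines alone were 0.0914% of regions near genes. The pattern was noticed after its values were seen, and no test was made of it.

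The number of regions could be tested for 4 of the 10 genes, those with at least 3 regions on average. None of Chga, Syp, Ddc and Ncam1 passed an adjusted p of 0.05 in limma between the genotypes, where 1.05% of 7654 genes passed. At an unadjusted p under 0.05, 2 of the 4 passed (Ddc and Ncam1), as did 21.3% of all genes tested. Chga differed by -0.14 ± 0.16 (SE), with an adjusted p of 0.671 by limma. Syp differed by 0.11 ± 0.15 (SE), with an adjusted p of 0.747 by limma. The 4 genes had a median of -0.018, and all genes tested 0.022. In liver metastasis against lung tumor lines within Nfibf/f, 0 of 4 passed, against 0.0523% of genes, and 0 of 4 had an unadjusted p under 0.05, against 7.09% of genes. In the liver metastasis lines, 1 RPR2 against 2 Nfibf/f, 0 of 4 passed as well, against 1.27% of genes, and 0 of 4 had an unadjusted p under 0.05, against 13.8% of genes. The names of 1398M1 and 1398P2 begin with the same number, as do those of 1399M4 and 1399P1. The fits treat them as 4 independent lines, which the labels do not state. With a single RPR2 line in the liver comparison, the line was assumed to vary like the others.

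**Figure D3:**
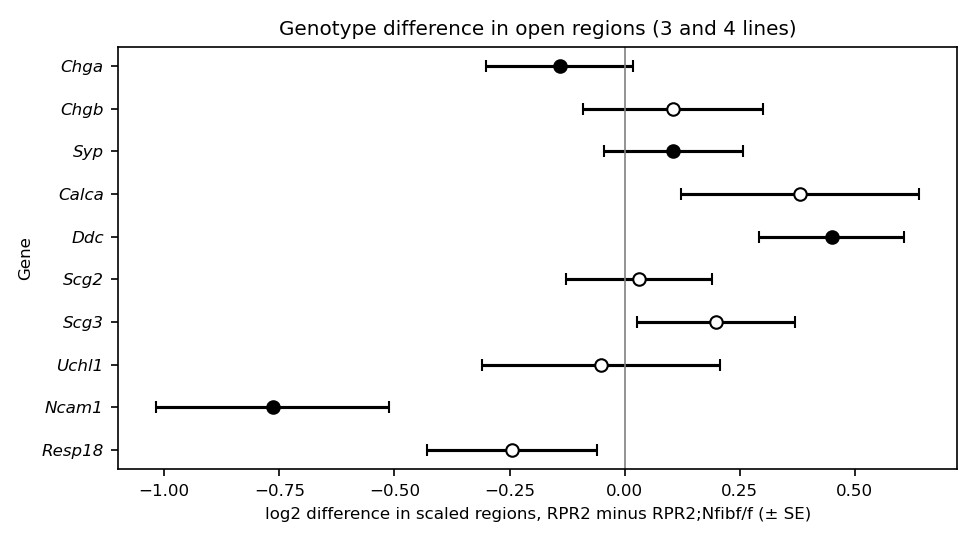
log2 difference in scaled region number, RPR2 minus Nfibf/f, with its standard error (x axis) for the 10 genes (y axis), from 3 and 4 lines. Filled points are the 4 genes tested, and open points are genes with under 3 regions on average, taken from the fit without that minimum. Ncam1 lies lowest at -0.76 and Ddc highest at 0.45.

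The other 6 genes had few regions in any line. Scg2 had 1 region in every library. Chgb had 1 or 2, Calca 1 to 3, Uchl1 1 to 3, Scg3 2 or 3 and Resp18 2 to 4. Without the minimum, their log2 differences between genotypes ran from -0.24 at Resp18 to 0.38 at Calca, and none passed an adjusted p of 0.05 by limma.

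**Figure D4:**
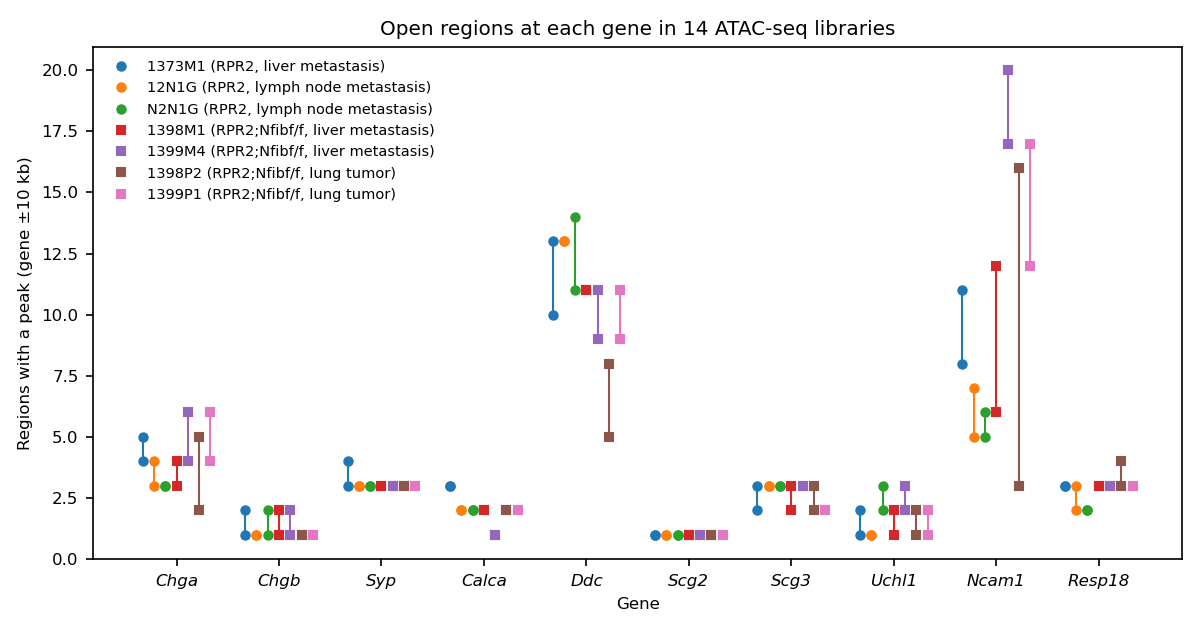
Number of merged regions with a peak within 10 kb of each gene (y axis) for the 10 genes (x axis). Each point is a library and each vertical line joins the 2 libraries of a line, with circles for RPR2 and squares for Nfibf/f lines. Ncam1 ranges from 3 to 20 regions and Ddc from 5 to 14, while the other genes stay at 6 or fewer.

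Wider lists of neuroendocrine genes, chosen with earlier results of these data known, held 61 genes. Of these, 35 had a gene-end peak in all 14 libraries and 7 in none, against 50.8% and 26.2% of all protein-coding genes. A start site was listed for 45 of them. Over a start-site window, 25 of the 45 had a peak in all 14 libraries and 7 in none, against 51.3% and 32.1% of 17491 genes. Among 31 that could be tested, 1 was higher in RPR2 lines and 0 were lower, against 0.34% and 0.706% of all genes tested, and 7 of 31 had an unadjusted p under 0.05, near the 21.3% of all genes. Their median log2 difference was 0.019. The gene that passed was Dcx, a microtubule-binding protein of young neurons, at 1.47 ± 0.25 (SE) with an adjusted p of 0.038 by limma. Genotype and tissue cannot be told apart in this difference. Dcx averaged 6.83 regions over the RPR2 lines and 2.38 over the others, and the call was lost when any of the lines 12N1G, N2N1G, 1398P2, 1399M4 or 1399P1 was left out, without 1398P2 replicate 1 (adjusted p 0.280), and with only peaks of −log10 q of at least 5 (adjusted p 0.0793). A gene-end peak of Dcx was called in all 6 RPR2 libraries and in 0 of the 8 others, a pattern of 0.105% of genes. Stx1a, a syntaxin of the release machinery, showed the reverse, with a gene-end peak in the 8 Nfibf/f libraries alone, as did 0.11% of genes.

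Of the 9 processing enzymes and granule proteins, 8 had a gene-end peak in every library. Differences between the lists were not tested. They included the prohormone convertase Pcsk2 (14.4 regions on average) and Ptprn2, a granule membrane protein (43.9). Of 20 genes for vesicle docking and release, 15 had such a peak, among them Syt1, the calcium sensor of release (13.8 regions), and Cadps2, a priming factor (12.8). Cadps2 differed by -0.96 ± 0.23 (SE), with an adjusted p of 0.078 by limma, and passed 0.05 in 3 alternatives. Of 13 peptide hormones, 1, Nmb, had a gene-end peak in every library and 4 had none in any. Over its start-site window, Nmb had a peak in 9 libraries. Cck and Gal had the most regions of that list, 3.36 and 2.64 on average. Of 9 genes of amine synthesis and transport 4 had a gene-end peak in all libraries, and Slc18a1, a vesicular amine transporter, and Tph2, a tryptophan hydroxylase, had 4.93 regions each. Gene ends missed the start of Tph1, which had a peak over its start-site window in 13 libraries and at its ends in 0. In the remaining list, 7 of 10 had a gene-end peak in all libraries, and Mapt, the tau gene, and Elavl4, a neuronal RNA-binding protein, had the most regions, 8.79 and 6.43.

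The summed regions of the 10 genes, scaled by each line's total, ran from 36.6 in 12N1G to 44.6 in 1399M4. Ncam1 and Ddc held 40 and 20 of the 94 regions, so the sum weighs these genes most and does not stand for the set evenly. The genes whose scaled region number followed this sum most closely over 7 lines, among 7650 compared, were Hbegf (Pearson r = 0.989), Aff1 (r = 0.973) and Miga2 (r = 0.971). The points share libraries and depth, and the values are a description of 7 lines only. They were picked as the highest of all genes compared.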

How the data were processed

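ATAC-seq peak lists of 14 libraries (7 lines, 2 each) were used. The authors trimmed with cutadapt 2.10 and used Bowtie2, Picard, SAMtools and MACS2, per the submitters' processing notes, which name GRCm38. Some file names carry another build label, but all coordinates fall within the mouse chromosomes. Peaks were called per library. The deposited lists give for each summit a fold ratio over local background, −log10 p-value and −log10 q-value (lowest 1.3), and an integer score, all by the authors. Read totals were not used here.

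Summit pileup and local background were solved from fold and p under a Poisson model, on the assumption that MACS2 adds 1 read to each. The 10 members and all lists were chosen with earlier results of these data known. All 10 members were described. Of the wider lists, the text names genes that passed the genotype test, those with gene-end peaks in every library of 1 genotype alone, and the 2 with most regions. Of member regions, the highest ranked of each pattern was named. A region was open in a line with peaks in both libraries. Regions per gene were averaged over the 2 libraries, scaled by the line's total, and tested as log2(value + 0.5) with limma 3.58.1 (R 4.3.3, trend, Benjamini-Hochberg over all genes with at least 3 regions on average). With 7 lines, p-values measure the spread between lines, whose independence is not stated. On simulated counts the genotype fit was tested for recovery of known changes, and merging and background solving were checked likewise. Alternatives covered scaling, pseudocount, filter, flank, q threshold, list length, summit merging, raised-background bins, the replicate block and leaving out libraries or lines.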

Additional observations from a re-analysis of the deposited data

Results flagged for a closer look

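Region numbers per line were compared within the 4 Nfibf/f lines by Dixon's rule for a sample far from the others, for the 8 genes whose number varied among them. It marked 3 of the 8. Chance marks about 1 in 20 groups of continuous values, a rate that does not carry over to these. The values are small and take few levels, and in each marked case the other 3 lines were tied. With such a tie the ratio used by the rule is always 1, so the number of marks shows no excess. Calca had 1 region in 1399M4, the lowest, and 2 in the other 3. Uchl1 had 2.5 regions in 1399M4, the highest, and 1.5 in the other 3. Resp18 had 3.5 regions in 1398P2, the highest, and 3 in the other 3.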

How the results depend on the processing

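No alternative brought any of the genes it tested past an adjusted p of 0.05 in limma, in the genotype (31 alternatives), tissue (30) or liver metastasis (29) comparison. Only the fit without a filter tested all 10 genes. The main fit tested 4, that with −log10 q of at least 5 tested 3 and that with equal numbers of peaks 2. The number of genes called over all genes did move, from 80 between genotypes to 333 without 1373M1, 1 without 1399P1, 3 without 1398P2 replicate 1 or without 12N1G, 5 with 12N1G and N2N1G as 1 line and 251 without a filter. Replicate numbers did not pair the libraries: the differences between replicates 1 and 2 correlated at 0.021 in the median over 21 pairs of lines, and 2 exceeded 0.1. Under the replicate block, which fits all libraries with the line as a block, 0 of the 4 genes were called and 325 genes in all. Of the wider lists, 1 gene was called, and 0 without scaling or with 12N1G and N2N1G as 1 line, and 0 to 2 when a library or line was left out. With −log10 q of at least 5, the gene called was Cadps2 and not Dcx. With equal numbers of peaks it was Cadps2 too, and Dcx fell under the minimum number of regions and could not be tested. For Dcx the difference stayed positive, from 1.15 to 1.89, while Syp ran from -0.039 (without 1398P2 replicate 1) to 0.20 when a library or line was left out, and Ddc was near 0, at -0.0023, with equal numbers of peaks. Ncam1 fell under the minimum number of regions with equal numbers of peaks and could not be tested there. Regions of 1 genotype alone numbered 0, and 0 to 1 when a library or line was left out. The count of genes with a gene-end peak in every library, 8, ran from 6 to 9, with 9 of 9 listed genes by RefSeq start sites, an alternative chosen after seeing the data. Regions with a peak in every library, 17 of 94 (18.1%, against 13.3% near genes), ran from 14 to 21. Some of the 17 lay at the ends of other genes: Fignl1 beside Ddc, Prickle3 beside Syp and Ptprn beside Resp18. The median percentile of the start-site peaks was 73.0 by fold and 83.4 by −log10 p. Limits: presence of a peak depends on depth, so absence means not called at that depth, least firmly in 1398P2 replicate 2. A count of regions does not weigh how open each is, and long genes such as Ncam1 hold more.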
